A study of Mus musculus with 17 samples.

Results

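The control cultures of 3 experiments on mouse primary neurons were compared with each other before any treatment: 6 of the 17 libraries of the series, 2 in each of 3 groups. They were taken as the columns labelled as controls in the 3 neuron tables and joined by gene identifier. All 6 were primary neurons from the brain of C57BL/6 mice (wild type as far as the labels say), grown by a protocol the labels call standard. Neither the age of the donors, the brain region, the days in culture nor the medium is given. The ADM control accompanies cultures treated with ADM, which the labels do not spell out. In lists of levels, set 1 and set 2 stand for the 2 libraries of those controls. The control here called set 1 accompanies cultures given an ApoE particle. The control here called set 2, labelled as neurons with control treatment, accompanies cultures given an ApoE particle or a reconstituted ApoE particle, and what the control treatment held is not given. The labels do not say whether both libraries of a group are from different cultures or animals, so each p-value measures only the spread between these libraries. Each group is a whole experiment, so the state of a culture, its preparation and its sequencing run cannot be told apart.

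A primary neuron culture from the brain is never neurons alone: astrocytes, microglia, oligodendrocyte precursors and vessel cells come along and divide until an inhibitor or the medium stops them. Young neurons make doublecortin and fetal transcription factors, and replace them with synaptic vesicle, receptor and ion channel genes as they mature. Cells that meet type I interferon activate a complex of transcription factors, STAT2 and IRF9 among them, that binds interferon-stimulated response elements and switches on antiviral and antigen presentation genes. Neurons make part of their own cholesterol through SREBP2 targets and take up the rest from ApoE particles released by astrocytes, so glia and sterol genes in a control culture set the base from which an ApoE treatment starts.

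The libraries held 15815829 to 19142353 counts, and 25948 genes had a value in all 6. After a filter on low counts 16659 genes were tested in 1 edgeR fit over the 6 libraries. Levels are CPM values, counts scaled to the library total with TMM factors, and a fold change or difference is the log2 value of a group over the one it is compared with, ± its standard error (SE) with the edgeR p adjusted over all tested genes. Of 648 genes in 44 lists, 621 had values in all 6 libraries and 568 were tested. Replicates were closest in the set 2 control, where 21 of the 16659 genes differed by over 2-fold between libraries, and farthest apart in the ADM control, with 518. The first ADM control library held less of nearly every glial list than the second, as given below. The 3 tables were also not counted against the same gene models: of 27960 genes listed for both ADM and set 2, 847 had other coordinates. In all, 162 genes were shifted in every library of a table, treated ones included, by at least 8-fold against every library of another, and 10 of these are members of the gene lists used here. For such genes the difference of the controls cannot be told apart from a difference in counting.

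Among the 3 groups, 6561 of 16659 genes differed at an adjusted p under 0.05, which is 39.4% of those tested. The set 1 control differed from the ADM control in 4970 genes (29.8%), 2656 of them higher (15.9%) and 2314 lower (13.9%). Against the same ADM control, 3364 genes (20.2%) differed in the set 2 control, 1780 higher (10.7%) and 1584 lower (9.51%). The set 2 control differed from the set 1 control in 3589 genes (21.5%), 1699 higher (10.2%) and 1890 lower (11.3%). The first principal component, with 53.1% of the variance, set the ADM control apart from the other groups, and the second, with 34.3%, set the set 1 control apart from the set 2 control. These counts moved when 1 library was left out. Among the 3 groups the count ran from 2766 to 9176, and for the set 1 against the ADM control from 1180 to 6999. For the set 2 control it ran from 977 to 5480 against the ADM control and from 689 to 5848 against the set 1 control. The lowest count came without the first set 1 library for the set 1 against the ADM control, and without the second set 2 library for the others. The comparisons share groups in pairs, so their values are given side by side only. Fold changes against the ADM control also ran with GC content across genes (Spearman rho 0.25 for the set 1 control and 0.41 for the set 2 control, over 16643 genes, which are not independent replicates).

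**Figure D1:**
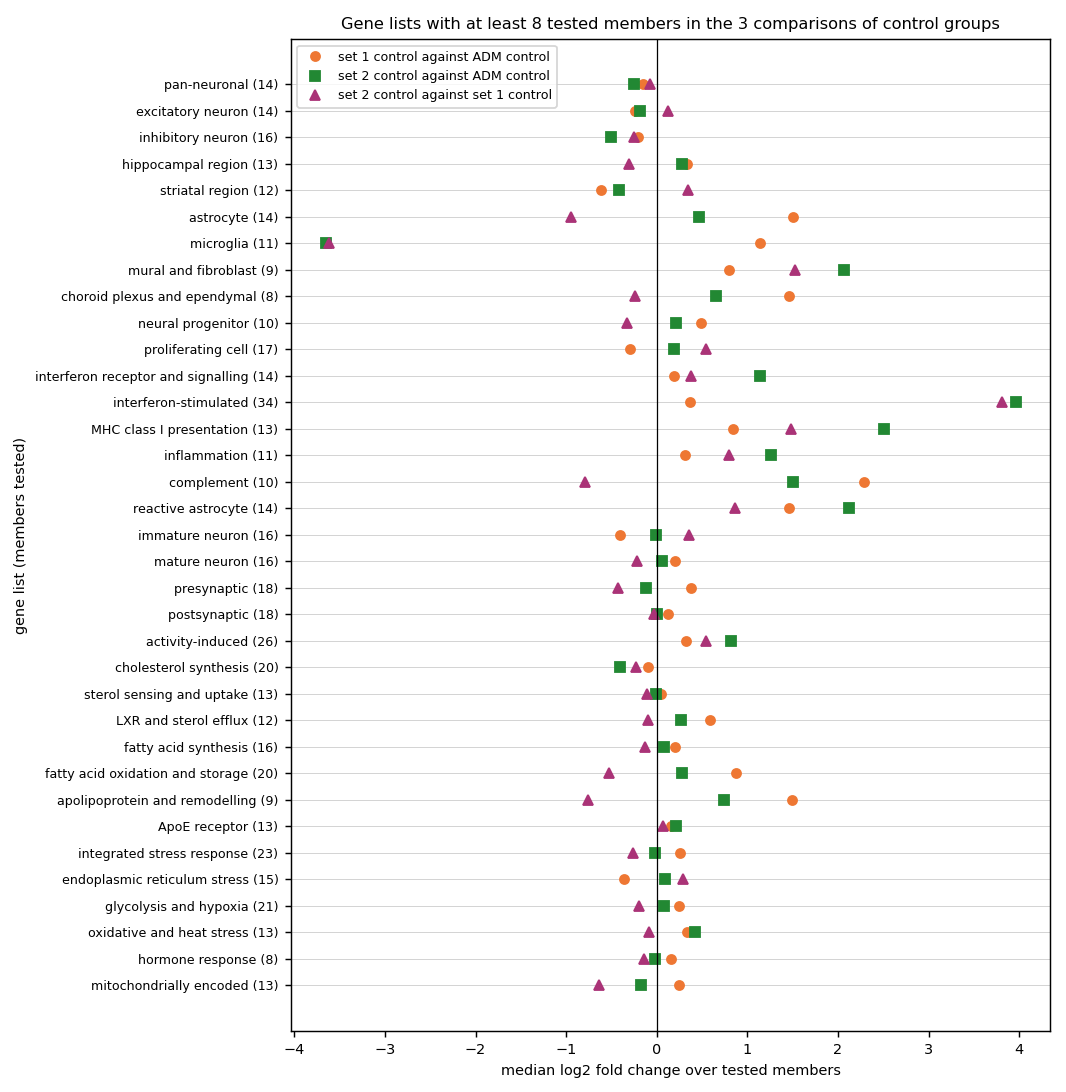
Median log2 fold change (horizontal axis) of the tested members of each gene list with at least 8 tested members (vertical axis, number tested in brackets) in the 3 comparisons of control groups, shown by colour and shape. The interferon-stimulated list stands farthest to the right, at 3.96 and 3.81 for the set 2 control, and the microglia list farthest to the left, at -3.65 and -3.62.

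All 6 libraries carried the neuron genes their label calls for, at similar sums. The 14 pan-neuronal genes summed to 9006 and 9644 CPM in the ADM control, 8807 and 9072 in set 1 and 8174 and 8349 in set 2. In the set 1 control 2 were higher than in the ADM control, against 15.9% of all tested genes, and 5 lower, against 13.9%. In the set 2 control 2 were higher (10.7% of all genes) and 6 lower (9.51%) than in the ADM control, and 3 were higher (10.2%) and 5 lower (11.3%) than in the set 1 control. Their median log2 fold change was -0.16 for the set 1 control and -0.25 for the set 2 control against the ADM control. Without the first set 2 library none of the 14 was called between the set 2 and ADM controls, and the 5 lower ones of the set 1 control became 1 without the first set 1 library, 2 without either set 2 library and 3 without the first ADM library. The 6 lower ones of the set 2 control became 0 without the first set 2 library and 2 without the second set 2 library, and the 5 lower than in the set 1 control became 3 without either set 1 or either set 2 library. The few higher ones numbered 1 to 4, 0 to 4 and 1 to 3 in the 3 comparisons, over fits without 1 library. Map2, the dendritic microtubule protein, stood at 2642 and 2693 CPM in the ADM control, 1932 and 2332 in set 1 and 2080.5 and 2060.1 in set 2, and passed no pairwise test. Single members still moved apart. Thy1, a surface glycoprotein that projection neurons gain as they mature, was at 36.2 and 53.1 CPM in the ADM control, 232 and 216 in set 1 and 60.2 and 60.8 in set 2. Both set 1 libraries lay far above the other 4, with a log2 fold change of 2.32 ± 0.17 (SE, adjusted p = 7.14e-05) over the ADM control and -1.89 ± 0.17 (SE, adjusted p = 0.000354) for the set 2 control against it. Nefm, the medium neurofilament subunit, ran the other way at 87.1 and 81.98 CPM in the ADM control, 34.4 and 46.1 in set 1 and 127 and 139 in set 2. It fell by 1.07 on the log2 scale in the set 1 control (adjusted p = 0.00148) and was higher by 0.65 in the set 2 control (adjusted p = 0.0135).

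The excitatory neuron list split in the set 1 control. Of 14 members, 5 were higher and 7 lower than in the ADM control, against 15.9% and 13.9% of all tested genes. Transporters and signalling proteins of working glutamatergic cells were higher. Slc17a7, the vesicular glutamate transporter VGLUT1, was at 44.6 and 65.4 CPM in the ADM control, 158 and 147 in set 1 and 62.1 and 62.6 in set 2, with 1.47 ± 0.17 (SE, adjusted p = 0.000733) over the ADM control. Nrgn, the postsynaptic calmodulin-binding protein neurogranin, was at 45.4 and 84.8 CPM in the ADM control, 544 and 459 in set 1 and 36.9 and 36.8 in set 2, and its log2 fold change was 2.94 ± 0.30 (SE, adjusted p = 0.0022). Slc30a3, which loads zinc into glutamatergic vesicles, and Camk2a, the synaptic kinase subunit, were higher by 2.95 and 1.25. The lower members were transcription factors that specify cortical projection neurons. Bcl11b (CTIP2) read 299 and 227 CPM in the ADM control, 94.02 and 99.7 in set 1 and 147 and 146 in set 2, with a log2 fold change of -1.44 ± 0.13 (SE, adjusted p = 0.000202) for the set 1 control, and Neurod2, Tbr1 and Fezf2 changed by -1.38, -1.07 and -1.16. In the set 2 control the differences of Slc17a7, Nrgn and Camk2a from the ADM control, 0.18, -0.82 and 0.20, did not pass. With 1 library left out, the 5 higher members of the set 1 control stayed between 4 and 5. The 7 lower ones became 2 without either set 1 library.

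Of the inhibitory neuron list, 7 of 16 members were lower and none higher in the set 2 control than in the ADM control. The median was -0.50, and 9.51% and 10.7% of all tested genes were lower and higher. Gad1, the main enzyme of GABA synthesis, passed no test, at 196 and 222 CPM in the ADM control, 188 and 205 in set 1 and 168 and 166 in set 2, while Gad2, the vesicle-bound form, had a log2 fold change of -0.48 in the set 2 control and the transcription factor Dlx1 one of -0.78, both lower. Lhx6, the transcription factor of interneurons from the medial ganglionic eminence, fell further, at 63.8 and 68.8 CPM in the ADM control, 53.1 and 50.3 in set 1 and 27.7 and 27.9 in set 2, with -1.25 ± 0.11 (SE, adjusted p = 8.72e-05) for the set 2 control. Vip, the peptide of a cortical interneuron class, was at 0.798 and 1.38 CPM in the ADM control, 7.27 and 6.69 in set 1 and 0.225 and 0.174 in set 2. It was highest in both set 1 libraries, a log2 difference of 2.66 ± 0.34 (SE, adjusted p = 0.00115) from the ADM control, and lowest in the set 2 control (-2.42 ± 0.51 SE, adjusted p = 0.0128). Calb2, a calcium-binding protein of interneurons, was also higher in the set 1 control, by 1.44. Sst, encoding somatostatin, was lower there, with -0.81, and did not pass in the set 2 control (-0.20, adjusted p = 0.277). In fits without 1 library, the 7 lower members of the set 2 control became 1 without the second set 2 library and 2 without the first set 2 library.

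Genes of several brain regions were present. Of 12 striatal genes, 7 were lower in the set 1 control and none higher than in the ADM control. The shares of all tested genes were 13.9% and 15.9%. Isl1, a transcription factor of striatal and motor precursors, read 4.97 and 3.50 CPM in the ADM control, 0.311 and 0.453 in set 1 and 3.38 and 3.88 in set 2, lowest in the set 1 libraries, which was a difference of -3.43 ± 0.40 (SE, adjusted p = 0.000701). Penk, encoding enkephalin, was at 12.4 and 5.88 CPM in the ADM control, 3.67 and 3.23 in set 1 and 11.7 and 14.3 in set 2. Of 13 hippocampal genes, 5 were higher and 1 lower in the set 1 control, against 15.9% and 13.9% of all tested genes. Among them Wfs1, which marks the CA1 field, stood at 34.2 and 47.9 CPM in the ADM control, 92.4 and 92.1 in set 1 and 47.1 and 46.9 in set 2. Calb1, of granule cells, was at 25.3 and 34.6 CPM in the ADM control, 72.2 and 73.1 in set 1 and 14.5 and 14.7 in set 2. When 1 library was dropped, the 7 lower striatal genes became 2 without either set 1 library. The 5 higher hippocampal genes stayed between 4 and 5. Of 15 thalamic, midbrain and hindbrain genes 6 passed the filter. The 11 with values in all 6 libraries summed to 79.99 and 90.5 CPM in the ADM control, 91.4 and 83.2 in set 1 and 62.05 and 59.3 in set 2.

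Astrocyte genes were highest in the set 1 control. Of 15 markers 14 were tested, all but Gjb6. The 15 summed to 979.5 and 1798 CPM in the ADM control, 4253 and 3903 in set 1 and 2136 and 2017 in set 2. Both set 1 libraries thus lay above the other 4 and the groups did not overlap. In bulk RNA, fewer cells of a type and less RNA per cell cannot be told apart. Against the ADM control 7 of the 14 markers were higher (15.9% of all tested genes) and none lower (13.9%), with a median of 1.498. Sox9, the astrocyte lineage factor, was at 30.6 and 38.2 CPM in the ADM control, 100.8 and 82.9 in set 1 and 44.8 and 49.8 in set 2, and its difference was 1.42 ± 0.15 (SE, adjusted p = 0.000375). Atp1b2, the sodium pump subunit of astrocytes, read 142 and 162 CPM in the ADM control, 443 and 408 in set 1 and 183 and 184 in set 2, with 1.49 ± 0.11 (SE, adjusted p = 4.20e-05). The glutamate transporters Slc1a2 and Slc1a3 were higher by 1.54 and 1.16. Ntsr2, an astrocyte neurotensin receptor, was at 3.19 and 5.09 CPM in the ADM control, 28.5 and 23.6 in set 1 and 2.37 and 3.01 in set 2, close to its ADM control level in the set 2 control.

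No astrocyte marker passed between the set 2 and ADM controls by edgeR (0 of 14, median 0.47), although 5 had an unadjusted p under 0.05, and DESeq2 called 1 and limma-voom 0. Against the set 1 control 6 of 14 were lower in the set 2 control (11.3% of all tested genes). Gfap, the intermediate filament of astrocytes, shows the spread behind this: 12.4 and 122 CPM in the ADM control, 601 and 486 in set 1 and 329 and 321 in set 2. The first ADM control library was far below the second, and none of the 3 differences passed (3.01 ± 1.16 SE, adjusted p = 0.145 for the set 1 control, and 2.27 ± 1.13 SE, adjusted p = 0.255 for the set 2 control). Aldh1l1, the folate enzyme used to mark all astrocytes, was at 31.9 and 72.8 CPM in the ADM control, 91.3 and 86.5 in set 1 and 115 and 114 in set 2. The result for the set 2 against the ADM control turned on the ADM libraries. Without the first ADM control library, 3 astrocyte markers were higher and 1 lower in the set 2 control, with a median of 0.10. Without the second, 12 were higher and 0 lower, with a median of 1.07. Over fits that each left out 1 library, the 7 markers higher in the set 1 control became 4 without the first set 1 library, 11 without the first ADM library and 14 without the second ADM library. The 6 lower in the set 2 than in the set 1 control became 3 without the first set 2 library and 11 without either ADM library.

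**Figure D2:**
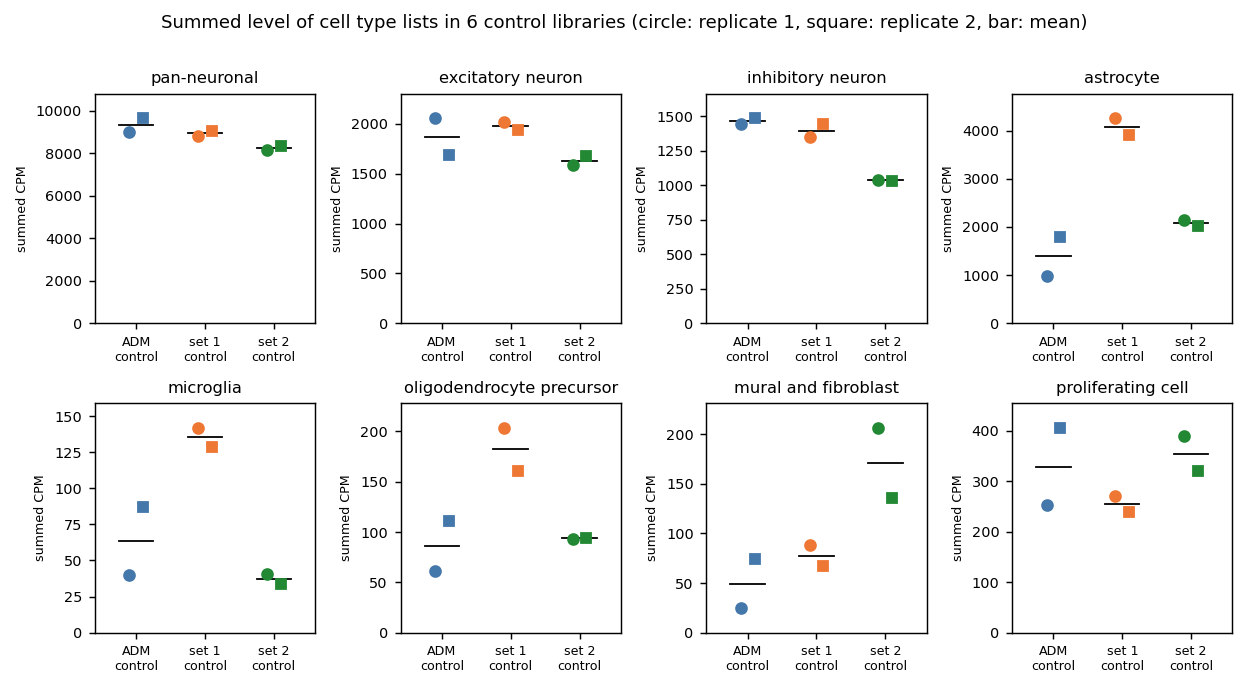
Summed CPM (vertical axis, linear from 0) of 8 cell type lists in each control library, by group on the horizontal axis, with a bar at the mean of the 2 libraries. The pan-neuronal and excitatory sums lie close together across the groups, the inhibitory sum is lowest in both set 2 libraries, and the astrocyte, microglia and oligodendrocyte precursor sums are highest in both set 1 libraries.

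Microglia genes were low in all 6 libraries. For 8 of the 11 tested, both set 2 libraries lay below the other 4, against 16.3% of all tested genes. Of 18 markers 11 were tested. The 13 with values in all 6 libraries summed to 40.1 and 87.3 CPM in the ADM control, 142 and 129 in set 1 and 40.3 and 33.5 in set 2. On this sum the first ADM control library overlapped the set 2 control. Of the 11 tested, 10 were lower and none higher in the set 2 than in the set 1 control. The shares of all tested genes were 11.3% and 10.2%. Against the ADM control 6 were lower in the set 2 control (9.51% of all tested genes). C1qa, a chain of the complement recognition protein made by microglia, was at 1.60 and 9.06 CPM in the ADM control, 17.5 and 14.1 in set 1 and 0 and 0.116 in set 2. C1qb and C1qc followed, with log2 differences of -8.48 and -7.50 between the set 2 and set 1 controls. Cx3cr1, the fractalkine receptor, had 182 counts in the set 1 control and 0 in the set 2 control, at least 62.9-fold lower when the floor is 3 counts over the group. Csf1r, the receptor microglia need to survive, was at 0.921 and 4.24 CPM in the ADM control, 5.59 and 5.04 in set 1 and 0.394 and 0.58 in set 2. Cd68, a lysosomal gene, was lower than in the set 1 control by a smaller step, with -1.96. P2ry12 and Tmem119, which mark resting microglia, were too low to be tested, with 0 to 9 counts of P2ry12 and 0 to 3 counts of Tmem119 per library. C1qa, C1qb, C1qc, Cx3cr1 and Ctss were at least 8-fold lower in all 6 libraries of set 2, treated included, than in every library of set 1. The first ADM control library again held less than the second, and without it 9 markers were lower in the set 2 control than in the ADM control. With 1 library left out, the 10 markers lower than in the set 1 control became 0 without the first set 1 or the second set 2 library, 1 without the first set 2 library and 3 without the second set 1 library. The 6 lower than in the ADM control became 0 without either set 1 or either set 2 library.

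A few genes of other non-neuronal cells differed. Oligodendrocyte precursor genes summed to 60.9 and 111 CPM in the ADM control, 204 and 161 in set 1 and 93.4 and 94.2 in set 2, and 2 of 6 tested were higher in the set 1 control than in the ADM control (15.9% of all tested genes). One was Pdgfra, the growth factor receptor that defines these cells, at 1.53 and 0.636 CPM in the ADM control, 4.78 and 4.42 in set 1 and 1.07 and 0.464 in set 2; the other, Sox10, had no counts in the ADM control. With 1 library left out, these 2 became 0 without either set 1 library and 4 without either ADM library. Mature oligodendrocyte genes were scarce: 5 of 10 passed the filter, and Mbp, myelin basic protein, was at 15.8 and 12.03 CPM in the ADM control, 25.6 and 25.8 in set 1 and 18.1 and 18.7 in set 2, higher in the set 1 control by 0.89. Some matrix genes of fibroblasts and mural cells were higher in the set 2 control, 3 of 9 in the list with 1 lower than in the ADM control, against 10.7% and 9.51% of all tested genes. The 3 became 6 without the second ADM library. Col1a1, a chain of type I collagen, was at 3.74 and 4.19 CPM in the ADM control, 5.59 and 6.23 in set 1 and 27.8 and 19.5 in set 2, with 2.57 ± 0.23 (SE, adjusted p = 0.000109) over the ADM control and 2.00 ± 0.22 (SE, adjusted p = 0.000792) over the set 1 control. Rgs5, a signalling gene of pericytes, stood at 1.53 and 0.848 CPM in the ADM control, 1.43 and 1.02 in set 1 and 7.95 and 11.1 in set 2, and Col1a2 was higher by 2.73. The list did not move as one: Dcn, the matrix proteoglycan decorin, was at 7.80 and 9.11 CPM in the ADM control, 15.1 and 14.3 in set 1 and 1.58 and 1.27 in set 2, lower in the set 2 control, with -2.56 ± 0.24 (SE, adjusted p = 0.000135). Of 6 tested endothelial genes edgeR called 0 in each of the 3 comparisons, as did DESeq2 and limma-voom, with 1 unadjusted p under 0.05 in all. The 9 endothelial genes with values in all 6 libraries summed to 4.85 and 21.4 CPM in the ADM control, 39.2 and 23.5 in set 1 and 15.3 and 13.1 in set 2. Ttr, the abundant choroid plexus transcript, was at 0.614 and 11.3 CPM in the ADM control, 22.2 and 10.1 in set 1 and 57.4 and 32.2 in set 2 and passed no test.

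The 17 genes of proliferating cells summed to 252 and 406 CPM in the ADM control, 272 and 239 in set 1 and 389.5 and 320.1 in set 2. Between the set 2 and ADM controls 0 passed, by edgeR, DESeq2 or limma-voom, and 0 had an unadjusted p under 0.05, while 3 of 17 were lower in the set 1 control than in the ADM control (13.9% of all tested genes) and 3 higher in the set 2 than in the set 1 control (10.2%), with medians of -0.30 and 0.54. These counts turned on single libraries. The 3 lower in the set 1 control became 0 without the second ADM or either set 1 library, 1 without either set 2 library and 10 without the first ADM library, with a median of -0.61 without the first ADM library and 0.31 without the second. The 3 higher than in the set 1 control became 0 without either set 1 or either set 2 library, 10 without the second ADM library and 11 without the first ADM library. Between the set 2 and ADM controls, 9 were higher without the second ADM library and 1 lower without the first. Mcm5, a subunit of the replicative helicase, was at 14.7 and 17.5 CPM in the ADM control, 10.4 and 10.7 in set 1 and 19.6 and 16.9 in set 2. Of 10 neural progenitor genes, 1 was higher and 1 lower in the set 2 than in the ADM control (10.7% and 9.51% of all tested genes). Against the set 1 control 2 were higher and 3 lower (10.2% and 11.3%). Both set 1 libraries lay above the other 4 for 6 of the 10, against 21.5% of all tested genes. Both set 2 libraries did so for 1 only, against 16.8%. That 1 was Nes, the intermediate filament nestin of progenitors and reactive glia. It was at 75.1 and 116 CPM in the ADM control, 88.4 and 78.1 in set 1 and 220.0 and 182 in set 2, with 1.07 ± 0.21 (SE, adjusted p = 0.0133) over the ADM control. Sex-linked transcripts differed as well. Xist, made from the inactive X of female cells, was at 2112 and 1666 CPM in the ADM control, 1032 and 1476 in set 1 and 794 and 771 in set 2. The Y-linked helicase Ddx3y was at 20.4 and 20.8 CPM in the ADM control, 13.7 and 14.5 in set 1 and 27.8 and 28.1 in set 2. The count ratio of Xist to Ddx3y was 28.6 and 27.4 in the set 2 control libraries against 75.1 to 103 in the other 4. Against the ADM control Xist was lower in the set 2 control, with a log2 fold change of -1.27, and Ddx3y higher, with 0.44. In a fit over protein-coding genes at the same position in the 3 tables, which leaves out Xist, 0 of the 4 Y-linked genes passed between these groups.

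The immune state set the set 2 control apart from both other groups. Of 34 tested interferon-stimulated genes, 32 were higher in the set 2 control than in the ADM control and none was lower. Among all tested genes 10.7% were higher and 9.51% lower. The median log2 fold change of the list was 3.96, and the median over all tested genes was -0.01. Against the set 1 control, 29 were higher (10.2% of all tested genes) and none lower (11.3%), with a median of 3.81. In all 34 genes both set 2 libraries lay above the other 4, which held for 16.8% of all tested genes. The list summed to 59.9 and 128 CPM in the ADM control, 147 and 125 in set 1 and 1238 and 1209 in set 2. In fits without 1 library, the 32 members higher than in the ADM control became 19 without either set 2 library. The 29 higher than in the set 1 control became 15 without the first set 1 or either set 2 library and 16 without the second set 1 library. Over all alternatives 19 to 34 members were higher than in the ADM control and 15 to 33 higher than in the set 1 control, with 0 lower in each.

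Promoters of some of these genes are shown here for the element that STAT2 and IRF9 bind. Each is the RefSeq window of 300 bases on GRCm38.p6, from 250 bases before the annotated start to 50 after, 5′ to 3′ on the gene's strand. Capitals mark every match of the element core on either strand: GAAA, any 2 bases and GAAA again, or TTTC, any 2 bases and TTTC where the match is on the other strand. The first 3 are antiviral effectors, B2m is the light chain of MHC class I, and Oasl2 has the largest fold change from the ADM control.
Isg15 (chr4:156200769-156201068, minus strand): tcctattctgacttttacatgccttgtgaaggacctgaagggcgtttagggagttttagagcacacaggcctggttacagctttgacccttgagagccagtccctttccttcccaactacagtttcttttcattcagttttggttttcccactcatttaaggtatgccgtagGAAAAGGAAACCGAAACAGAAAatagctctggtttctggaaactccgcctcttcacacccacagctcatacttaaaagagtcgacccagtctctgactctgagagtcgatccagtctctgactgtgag
Ifit1 (chr19:34640639-34640938, plus strand): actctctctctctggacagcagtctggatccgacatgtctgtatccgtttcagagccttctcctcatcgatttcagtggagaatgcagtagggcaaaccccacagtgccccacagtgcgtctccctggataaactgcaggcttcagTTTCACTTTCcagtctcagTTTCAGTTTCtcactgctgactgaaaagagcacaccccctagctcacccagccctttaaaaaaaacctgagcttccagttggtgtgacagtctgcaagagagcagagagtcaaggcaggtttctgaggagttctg
Ifit3 (chr19:34583279-34583578, plus strand): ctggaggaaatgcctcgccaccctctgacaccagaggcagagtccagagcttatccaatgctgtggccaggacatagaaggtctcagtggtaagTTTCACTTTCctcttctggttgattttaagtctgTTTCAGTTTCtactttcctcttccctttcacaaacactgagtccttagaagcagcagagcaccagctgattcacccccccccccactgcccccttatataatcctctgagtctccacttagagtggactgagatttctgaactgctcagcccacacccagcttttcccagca
B2m (chr2:122147437-122147736, plus strand): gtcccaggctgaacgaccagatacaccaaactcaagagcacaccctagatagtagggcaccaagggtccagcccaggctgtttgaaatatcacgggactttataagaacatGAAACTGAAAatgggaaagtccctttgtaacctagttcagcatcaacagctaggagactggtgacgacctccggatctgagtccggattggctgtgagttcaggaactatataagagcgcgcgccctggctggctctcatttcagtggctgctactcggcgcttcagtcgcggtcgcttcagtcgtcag
Oasl2 (chr5:114896684-114896983, plus strand): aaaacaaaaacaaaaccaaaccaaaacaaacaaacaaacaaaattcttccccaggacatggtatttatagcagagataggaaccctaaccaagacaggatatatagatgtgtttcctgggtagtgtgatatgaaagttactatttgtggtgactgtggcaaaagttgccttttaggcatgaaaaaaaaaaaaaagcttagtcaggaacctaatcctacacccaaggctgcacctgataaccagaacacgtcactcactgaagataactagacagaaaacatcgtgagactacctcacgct
The core was found in 16 of the 26 interferon-stimulated genes with a window, or 61.5%, against 3.99% of all 27025 symbols in the table. It was rarer in the MHC class I list, in 2 of 11 genes with a window (18.2%), B2m among them. Of the interferon receptor and signalling genes with a window, 2 of 14 held it (14.3%). Isg15 holds 3 overlapping matches from 78 bases before the start, Ifit1 holds 2 from 104 bases before it, Ifit3 holds 2 and B2m 1. The window of Oasl2 has no match with these letters. The list was fixed as genes known to respond to interferon, so its share of 61.5% describes the list and not the levels in these libraries.

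Isg15, the ubiquitin-like protein that interferon couples to cell proteins, was at 1.17 and 2.44 CPM in the ADM control, 0.994 and 0.567 in set 1 and 60.02 and 58.8 in set 2. Its log2 difference was 5.01 ± 0.29 (SE, adjusted p = 1.09e-05) from the ADM control and 6.25 ± 0.32 (SE, adjusted p = 1.81e-05) from the set 1 control. Ifit1, which binds viral RNA ends, read 0.0614 and 2.12 CPM in the ADM control, 1.49 and 0.623 in set 1 and 47.8 and 43.8 in set 2, and Ifit3, its partner, 0.184 and 2.86 CPM in the ADM control, 1.99 and 1.64 in set 1 and 39.8 and 31.2 in set 2. Both set 2 libraries stood apart for both genes, by 5.32 and 4.48 over the ADM control. Oasl2, of the oligoadenylate synthetase family, was at 0.307 and 3.34 CPM in the ADM control, 1.80 and 1.47 in set 1 and 373 and 378 in set 2, a log2 difference of 7.62 ± 0.66 (SE, adjusted p = 0.00289). Bst2 (tetherin), which holds budding viruses at the membrane, was at 0.246 and 1.85 CPM in the ADM control, 3.48 and 1.98 in set 1 and 71.3 and 63.1 in set 2. Iigp1, an immunity-related GTPase that interferon induces, was at 1.96 and 2.54 CPM in the ADM control, 1.30 and 1.25 in set 1 and 64.5 and 63.5 in set 2, and Ifi47, another of that family, had 178 counts in the set 2 control and 0 in the set 1 control, at least 57.2-fold higher. RNA sensors rose too: Ifih1 (MDA5) was higher by 3.96, Ddx58 (RIG-I) by 3.22 and the kinase Eif2ak2 (PKR) by 2.58 over the ADM control. The 2 members that did not pass against the ADM control were Rsad2 (viperin) and Gbp2. Rsad2 was at 0.246 and 3.29 CPM in the ADM control, 3.11 and 1.08 in set 1 and 20.3 and 15.5 in set 2. Gbp2 stood at 0.368 and 4.03 CPM in the ADM control, 3.85 and 3.29 in set 1 and 12.5 and 9.79 in set 2, so both were still highest in the set 2 libraries.

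Of the machinery upstream a part was higher. Of 14 tested interferon receptor and signalling genes, 7 were higher in the set 2 than in the ADM control (10.7% of all tested genes). None was lower (9.51%). The 7 were transcription factors and feedback genes. Stat2 stood at 43.5 and 37.6 CPM in the ADM control, 31.4 and 36.9 in set 1 and 152 and 148 in set 2, and Irf9 at 11.7 and 16.4 CPM in the ADM control, 15.8 and 15.8 in set 1 and 100.3 and 95.2 in set 2. Their log2 differences from the ADM control were 1.89 ± 0.12 (SE, adjusted p = 1.65e-05) and 2.79 ± 0.16 (SE, adjusted p = 6.56e-06). Irf7, the factor that amplifies interferon production, was at 0.307 and 1.22 CPM in the ADM control, 0.684 and 0.34 in set 1 and 30.6 and 32.7 in set 2. Usp18, the protease that removes ISG15 and dampens the receptor, was at 0.368 and 1.06 CPM in the ADM control, 0.621 and 0.85 in set 1 and 43.6 and 47.8 in set 2. The receptors and kinases did not pass: Ifnar1, a chain of the type I receptor, was at 104 and 90.03 CPM in the ADM control, 69.5 and 81.7 in set 1 and 92.7 and 82.9 in set 2, with -0.15 ± 0.12 (SE, adjusted p = 0.438), and Jak1 differed by 0.25. The interferon genes Ifnb1 and Ifng were not tested. In the set 1 control, 3 of the 34 interferon-stimulated genes were higher and 2 lower than in the ADM control. This comparison turned on the ADM libraries. Its median of 0.36 went to -0.30 without the first ADM control library, with 2 members higher and 4 lower. Without the second it went to 2.21, with 24 higher and 0 lower. Without the first set 1 library 0 members passed in either direction. When 1 library was dropped, the 7 higher signalling genes of the set 2 control stayed between 6 and 9.

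High and low levels of these genes occurred within the set 2 table. In the 2 set 2 libraries given the ApoE particle, the 34 genes summed to 80.3 and 86.1 CPM, and in the 2 given the reconstituted particle to 1230.4 and 1180.0 CPM, on a scale over all 14 neuron libraries where the set 2 controls were at 1257.6 and 1232.6 CPM. The treated libraries of the other tables lay between 238 and 494 CPM.

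**Figure D3:**
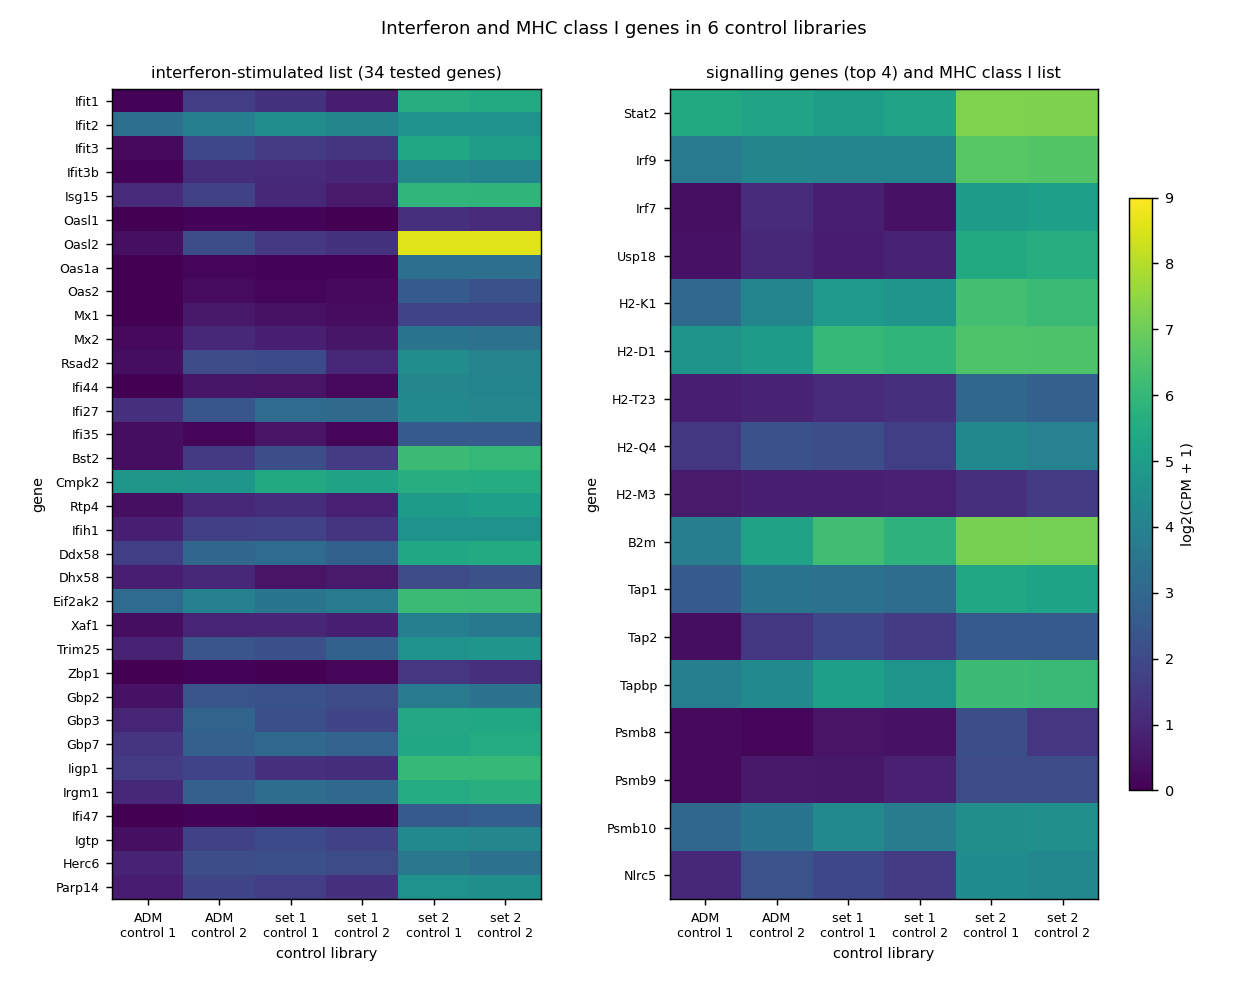
Level of each gene (rows) in each control library (columns) as log2(CPM + 1), by colour, for the 34 tested interferon-stimulated genes and for 4 signalling genes with the MHC class I list. The 2 set 2 control columns are brighter than the other 4 in every row of the left panel, and in every MHC class I row of the right panel.

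MHC class I presentation genes moved with the interferon genes. Of 13 tested, 12 were higher in the set 2 control than in the ADM control and 9 higher than in the set 1 control, with none lower in either, against 10.7% and 10.2% of all tested genes. Both set 2 libraries lay above the other 4 for all 13, against 16.8% of all tested genes. B2m, whose promoter is shown above, was at 13.4 and 35.7 CPM in the ADM control, 75.5 and 54.9 in set 1 and 143 and 138 in set 2, with 2.51 ± 0.47 (SE, adjusted p = 0.0254) over the ADM control. H2-K1, a classical heavy chain, was at 7.49 and 15.8 CPM in the ADM control, 28.1 and 24.6 in set 1 and 78.8 and 68.7 in set 2, and its differences were 2.65 ± 0.32 (SE, adjusted p = 0.00386) and 1.48 ± 0.31 (SE, adjusted p = 0.0223). Tap1, the peptide transporter, was at 5.16 and 9.96 CPM in the ADM control, 9.51 and 8.27 in set 1 and 39.6 and 36.6 in set 2. Psmb8, a proteasome subunit of antigen processing, was at 0.184 and 0.106 CPM in the ADM control, 0.373 and 0.34 in set 1 and 3.44 and 1.68 in set 2, higher by 4.10, and Nlrc5, the transactivator of class I genes, was higher by 2.88. In the set 1 control 4 members were higher than in the ADM control (15.9% of all tested genes), and these became 1 without the first set 1 library, 2 without either set 2 library and 8 without the second ADM library. H2-D1 shows the order, at 24.2 and 29.4 CPM in the ADM control, 63.3 and 57.9 in set 1 and 91.1 and 87.7 in set 2, with 1.17 ± 0.12 (SE, adjusted p = 0.000412) for the set 1 control and 0.56 ± 0.12 (SE, adjusted p = 0.0132) for the set 2 control over it. Over fits that each left out 1 library, the 12 genes higher than in the ADM control stayed between 9 and 12. The 9 higher than in the set 1 control became 4 without either set 1 or the first set 2 library and 5 without the second set 2 library.

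Other inflammatory genes were spread over both sets. Of 11 tested, 6 were higher and 1 lower in the set 2 than in the ADM control (10.7% and 9.51% of all tested genes). In the set 1 control 3 were higher than in the ADM control (15.9%). Cebpd, a transcription factor of the acute phase, was at 1.10 and 2.01 CPM in the ADM control, 9.82 and 9.24 in set 1 and 10.8 and 13.04 in set 2, high in both sets. Osmr, the oncostatin M receptor, read 3.56 and 5.30 CPM in the ADM control, 22.99 and 21.1 in set 1 and 16.2 and 13.97 in set 2, also high in both, with 2.30 ± 0.22 (SE, adjusted p = 0.000203) and 1.76 ± 0.22 (SE, adjusted p = 0.00084) over the ADM control. Socs3, the feedback inhibitor of cytokine signalling, was at 5.40 and 4.72 CPM in the ADM control, 4.66 and 5.10 in set 1 and 16.7 and 15.4 in set 2, high in the set 2 control alone, and there it differed from the set 1 control by 1.72 ± 0.20 (SE, adjusted p = 0.000969). Tnf, Il1b and Il6 were too low to be tested. With 1 library left out, the 6 higher members of the set 2 control stayed between 4 and 7, and the 3 of the set 1 control became 6 without the second ADM library. Of 6 tested chemokines, Cx3cl1, the membrane chemokine of neurons, was at 55.6 and 70.2 CPM in the ADM control, 176 and 180.5 in set 1 and 67.4 and 69.7 in set 2, higher in the set 1 control by 1.502 ± 0.12 (SE, adjusted p = 0.000109), and Cxcl16 was lower there, with -1.14. Cxcl10, a classic interferon target, was at 0.982 and 9.59 CPM in the ADM control, 1.49 and 1.76 in set 1 and 9.19 and 7.42 in set 2, with the second ADM control library as high as the set 2 libraries, and passed no test.

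Reactive astrocyte genes were highest in the set 2 control. Of 14 tested, 8 were higher in the set 2 control than in the ADM control, 5 higher than in the set 1 control and none lower in either, against 10.7% and 10.2% of all tested genes. Both set 2 libraries lay above the other 4 for 10 of the 14, against 16.8%. Timp1, an inhibitor of metalloproteases, was at 0.859 and 0.742 CPM in the ADM control, 0.497 and 1.19 in set 1 and 7.55 and 6.14 in set 2, with 3.09 ± 0.40 (SE, adjusted p = 0.00115) over the ADM control and 2.99 ± 0.40 (SE, adjusted p = 0.00187) over the set 1 control. Cd109, a surface glycoprotein, was at 3.81 and 11.8 CPM in the ADM control, 13.1 and 10.99 in set 1 and 45.9 and 40.6 in set 2. Cd44, the hyaluronan receptor, was at 7.37 and 12.7 CPM in the ADM control, 15.9 and 12.9 in set 1 and 33.5 and 32.4 in set 2. Serpina3n, a protease inhibitor, was high in both sets at 2.09 and 10.3 CPM in the ADM control, 51.8 and 43.7 in set 1 and 60.9 and 67.9 in set 2, with 2.91 ± 0.64 (SE, adjusted p = 0.0316) and 3.35 ± 0.64 (SE, adjusted p = 0.0297). Of 10 complement genes 4 were higher in the set 1 control than in the ADM control (15.9% of all tested genes). C4b, which encodes complement component C4 and is made by astrocytes, was at 1.23 and 9.17 CPM in the ADM control, 57.6 and 50.5 in set 1 and 37.8 and 26.8 in set 2. Its difference in the set 1 control was 3.34 ± 0.78 (SE, adjusted p = 0.0374). C3ar1, the C3a receptor of microglia, was at 1.60 and 8.27 CPM in the ADM control, 14.5 and 9.92 in set 1 and 0.0564 and 0.348 in set 2, low in the set 2 control with the microglia genes. Summed fibroblast and mural genes, also highest in the set 2 control (206 and 136 CPM), moved with the reactive list, and their part in the result was not tested. In fits without 1 library, the 8 reactive genes higher than in the ADM control became 3 without either set 2 library, 5 without either set 1 library and 13 without the second ADM library. The 5 higher than in the set 1 control became 1 without either set 1 or either set 2 library and 8 without either ADM library. The 4 complement genes higher in the set 1 control became 2 without either set 1 library and 7 without the second ADM library.

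Genes of immature neurons were lowest in the set 1 control. Of 16 immature neuron genes, 8 were lower and 1 higher in the set 1 control than in the ADM control. The shares of all tested genes were 13.9% and 15.9%. Dcx, doublecortin, was at 2819 and 2386 CPM in the ADM control, 978 and 1331 in set 1 and 1809 and 1827 in set 2. Each group was separate from the others, with -1.17 ± 0.15 (SE, adjusted p = 0.00146) for the set 1 control and -0.52 ± 0.15 (SE, adjusted p = 0.0446) for the set 2 control against the ADM control. Sox11, a transcription factor of newborn neurons, was at 1090.0 and 529 CPM in the ADM control, 271 and 267 in set 1 and 528 and 576 in set 2, lowest in the set 1 control, with -1.59 ± 0.33 (SE, adjusted p = 0.0205). Nnat (neuronatin), a small membrane protein of the fetal brain, and Igfbpl1, a gene of newborn neurons, fell by 0.54 and by 1.84. Basp1, a growth cone protein, was the member that rose, by 0.31. The set 2 control had 1 member, Dcx, lower than the ADM control (9.51% of all tested genes). Against the set 1 control 5 members were higher in the set 2 control (10.2%). Those 5 became 0 without the first set 1 or either set 2 library and 9 without either ADM library. When 1 library was dropped, the 8 lower members of the set 1 control became 2 without the first set 1 library, 3 without the first set 2 library, 4 without the second set 2 library and 5 without the second set 1 library. The count ratio of Dcx to Rbfox3, the nuclear marker NeuN, was 32.8 and 22.2 in the ADM control, 7.88 and 10.8 in the set 1 control and 15.0 and 15.3 in the set 2 control.

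Genes of mature neurons moved in part. Of 16, 4 were higher and none lower in the set 1 than in the ADM control, against 15.9% and 13.9% of all tested genes. Slc12a5, the chloride exporter KCC2 that makes GABA inhibitory, was at 159 and 165 CPM in the ADM control, 255 and 277 in set 1 and 146 and 159.8 in set 2, with 0.72 ± 0.10 (SE, adjusted p = 0.00166). The count ratio of Slc12a2 (NKCC1, the chloride importer of young neurons) to Slc12a5 was 0.488 and 0.446 in the ADM control, 0.234 and 0.242 in the set 1 control and 0.460 and 0.402 in the set 2 control. Gabrd, a GABA receptor subunit outside synapses, was at 2.76 and 2.91 CPM in the ADM control, 6.34 and 6.40 in set 1 and 3.38 and 3.36 in set 2. Grin2a, the NMDA receptor subunit that rises after birth, went another way: at 32.3 and 26.3 CPM in the ADM control, 30.01 and 30.2 in set 1 and 51.5 and 47.4 in set 2 it was highest in the set 2 control, by 0.76 ± 0.13 (SE, adjusted p = 0.00497) over the ADM control. The channel genes Scn8a and Kcna2 did not pass, with log2 differences of -0.07 and 0.06 for the set 1 control. Over fits that each left out 1 library, the 4 higher members became 2 without the first set 1 library.

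**Figure D4:**
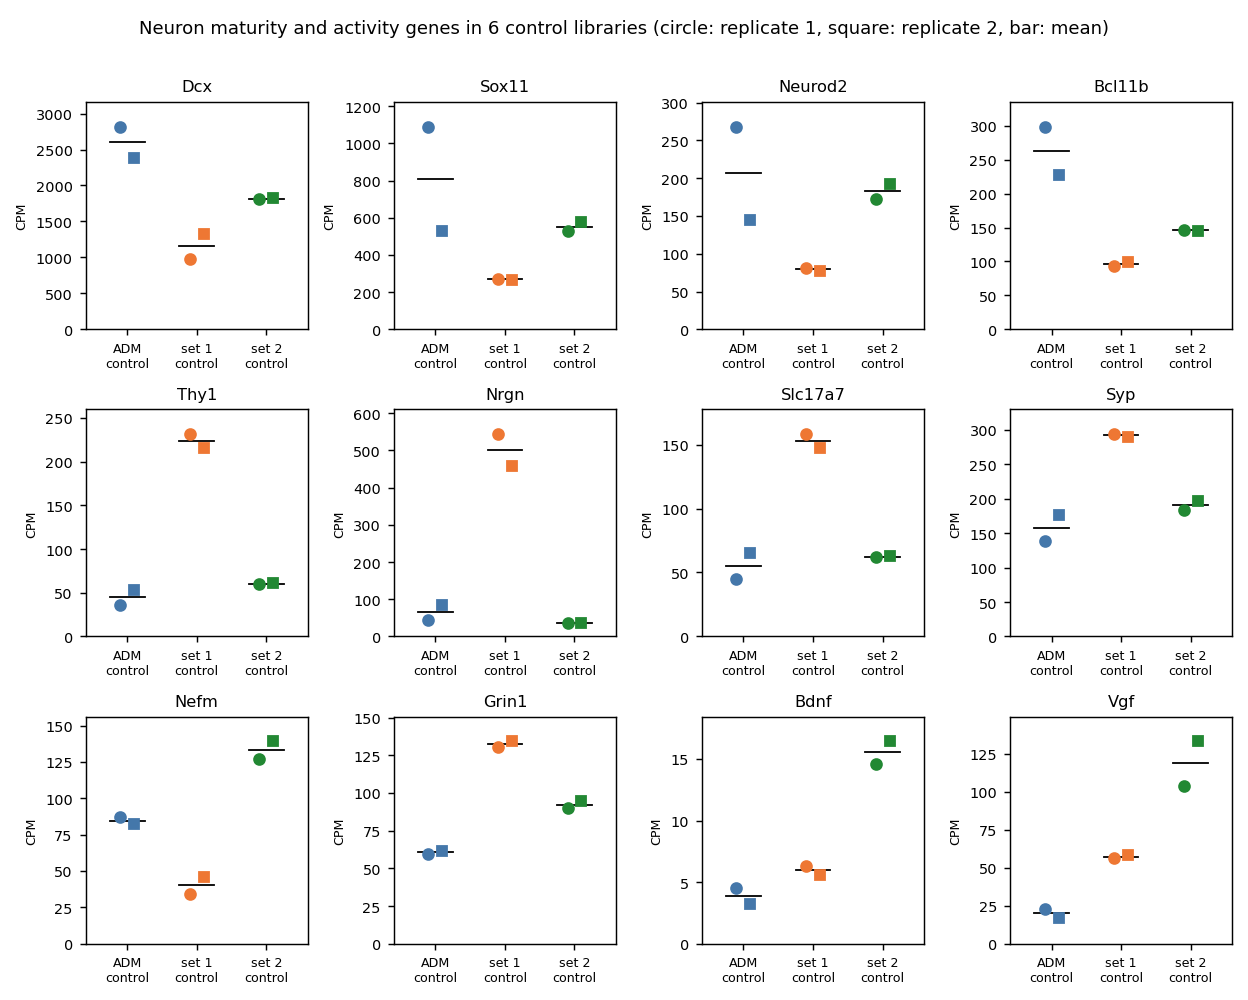
CPM (vertical axis, linear from 0) of 12 genes of neuron maturity, identity and activity in each control library, by group on the horizontal axis, with a bar at the mean of the 2 libraries. Dcx, Sox11, Neurod2 and Bcl11b are lowest in the set 1 control, Thy1, Nrgn, Slc17a7, Syp and Grin1 highest there, and Nefm, Bdnf and Vgf highest in the set 2 control.

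Genes of the presynapse were highest in the set 1 control. Of 18 presynaptic genes, 8 were higher and 1 lower than in the ADM control, against 15.9% and 13.9% of all tested genes. In 12 of the 18 both set 1 libraries lay above the other 4, against 21.5% of all tested genes. Syp (synaptophysin), a vesicle membrane protein, was at 139 and 176 CPM in the ADM control, 294 and 290.1 in set 1 and 184 and 196 in set 2, with 0.89 ± 0.12 (SE, adjusted p = 0.00165). Syn2, a synapsin that tethers vesicles, was at 123.2 and 165 CPM in the ADM control, 285 and 275 in set 1 and 86.8 and 85.2 in set 2. Vamp2, the vesicle fusion protein, was at 616 and 530.3 CPM in the ADM control, 826 and 795 in set 1 and 406 and 445 in set 2. Both were also lower in the set 2 control than in the ADM control, with -0.75 and -0.43. Rab3a, a vesicle GTPase, stood at 232 and 244 CPM in the ADM control, 370.2 and 315 in set 1 and 8.57 and 5.33 in set 2, but it was as low in the treated set 2 libraries and is one of the genes shifted across a whole table. Rims1, of the active zone, was at 129 and 125 CPM in the ADM control, 137 and 149 in set 1 and 28.01 and 21.9 in set 2 and was likewise between 20.02 and 28.4 CPM, by library totals, in all 6 set 2 libraries. With 1 library left out, the 8 higher presynaptic genes became 3 without the first set 1 library and 5 without the second set 1 library. Of the postsynaptic list 1 of 18 was higher and 2 lower in the set 1 control. Among all tested genes 15.9% were higher and 13.9% lower, so the list did not exceed these shares. The higher one was Grin1, the obligatory NMDA receptor subunit, at 59.5 and 61.6 CPM in the ADM control, 130.2 and 135 in set 1 and 89.8 and 94.6 in set 2, with 1.13 ± 0.10 (SE, adjusted p = 0.000129). Dlg4 (PSD-95), the main scaffold, was at 325 and 372 CPM in the ADM control, 419 and 439 in set 1 and 368 and 369.6 in set 2. Grin2b was at 911 and 1013 CPM in the ADM control, 575 and 932 in set 1 and 876 and 869 in set 2, and neither passed a test.

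Activity-induced genes were highest in the set 2 control. Of 26, 10 were higher and 1 lower than in the ADM control, and 11 higher and none lower than in the set 1 control, against 10.7% and 10.2% of all tested genes for the higher ones. For 15 of the 26 both set 2 libraries lay above the other 4, against 16.8%. Vgf, a secreted peptide precursor, was at 22.9 and 16.9 CPM in the ADM control, 56.4 and 58.1 in set 1 and 104 and 133 in set 2, a log2 difference of 2.58 ± 0.18 (SE, adjusted p = 2.97e-05) from the ADM control and 1.05 ± 0.16 (SE, adjusted p = 0.00411) from the set 1 control. Bdnf, the neurotrophin, was at 4.48 and 3.23 CPM in the ADM control, 6.34 and 5.61 in set 1 and 14.6 and 16.5 in set 2, with 2.01 ± 0.23 (SE, adjusted p = 0.000491) and 1.38 ± 0.22 (SE, adjusted p = 0.00385). Nptx2, a secreted pentraxin that gathers AMPA receptors, was at 5.95 and 3.44 CPM in the ADM control, 4.91 and 4.42 in set 1 and 12.9 and 15.01 in set 2. The first-wave gene Fos read 7.55 and 4.56 CPM in the ADM control, 16.03 and 12.1 in set 1 and 18.99 and 25.04 in set 2 and Junb 5.28 and 5.62 CPM in the ADM control, 12.5 and 10.9 in set 1 and 12.9 and 19.4 in set 2, and these were higher than in the ADM control in both sets. Egr3 was highest in the set 1 control, at 3.93 and 8.21 CPM in the ADM control, 30.3 and 32.7 in set 1 and 16.1 and 20.9 in set 2, with 2.36 ± 0.31 (SE, adjusted p = 0.00237). Arc and Npas4, which follow firing closely, did not pass against the ADM control, with 1.05 and 0.60 for the set 2 control. In fits without 1 library, the 10 members higher than in the ADM control became 5 without the second set 2 library. The 11 higher than in the set 1 control became 1 without the first set 1 or the second set 2 library, 2 without the second set 1 library and 4 without the first set 2 library.

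The summed level of cholesterol synthesis genes was highest in the ADM control and lowest in the set 2 control. The 20 genes summed to 5412 and 4879 CPM in the ADM control, 3730.0 and 4047 in set 1 and 3140.2 and 3154 in set 2, so the groups did not overlap on this sum. Hmgcs1, given below, made up a large part of each sum and was lower in both sets. The order of the sums therefore does not stand for each gene of the list. Of the 20, 4 were lower and none higher in the set 1 control than in the ADM control, and 9 lower and none higher in the set 2 control. Against the set 1 control, 6 were lower in the set 2 control. The shares of all tested genes that were lower were 13.9%, 9.51% and 11.3% in the same order. The medians were -0.10, -0.40 and -0.23. For 13 of the 20 both set 2 libraries lay below the other 4, against 16.3% of all tested genes. For 9 of the 20 both ADM control libraries lay above the other 4, against 19.7%.

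Hmgcs1, the synthase that makes HMG-CoA, was the only one of 15 genes of this list with a RefSeq window to hold the sterol regulatory element letters TCACNCCAC on either strand, which 1.44% of all symbols hold. Its promoter, in the same window as above and with the match in capitals, is shown for that site, 137 bases before the start.
Hmgcs1 (chr13:119690101-119690400, plus strand): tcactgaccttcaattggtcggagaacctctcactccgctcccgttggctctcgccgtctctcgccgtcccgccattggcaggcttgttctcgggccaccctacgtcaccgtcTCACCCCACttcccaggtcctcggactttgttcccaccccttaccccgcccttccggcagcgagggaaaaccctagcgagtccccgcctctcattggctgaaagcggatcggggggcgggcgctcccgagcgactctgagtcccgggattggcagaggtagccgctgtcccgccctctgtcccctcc
Hmgcs1 itself was at 2103 and 2001 CPM in the ADM control, 1193 and 1222 in set 1 and 857 and 851 in set 2. Its log2 fold change was -0.76 ± 0.10 (SE, adjusted p = 0.00104) in the set 1 control and -1.26 ± 0.10 (SE, adjusted p = 4.57e-05) in the set 2 control. Idi1, which makes the active isoprene unit, fell most, at 231 and 192 CPM in the ADM control, 66.9 and 80.5 in set 1 and 43.7 and 42.2 in set 2, with -1.52 ± 0.13 (SE, adjusted p = 0.000131) and -2.30 ± 0.14 (SE, adjusted p = 8.38e-06). Cyp51, the lanosterol demethylase, was at 380.5 and 296 CPM in the ADM control, 228 and 246 in set 1 and 241 and 247 in set 2, lower in both sets, with -0.51 and -0.47. Late steps were lower in the set 2 control, with -0.58 for Msmo1, -0.70 for Nsdhl, -0.65 for Sc5d and -0.54 for Dhcr7. Dhcr7, the last step of one branch, was at 123.03 and 109 CPM in the ADM control, 139 and 137 in set 1 and 77.9 and 81.8 in set 2, and in the set 1 control its difference of 0.25 did not pass. Sqle and Fdft1, of the squalene steps, did not pass. When 1 library was dropped, the 9 genes lower in the set 2 than in the ADM control became 2 without the second set 2 library and 3 without the first set 2 library. The 6 lower than in the set 1 control became 1 without either set 2 library. The 4 lower in the set 1 control became 2 without the first ADM or the first set 1 or either set 2 library.

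**Figure D5:**
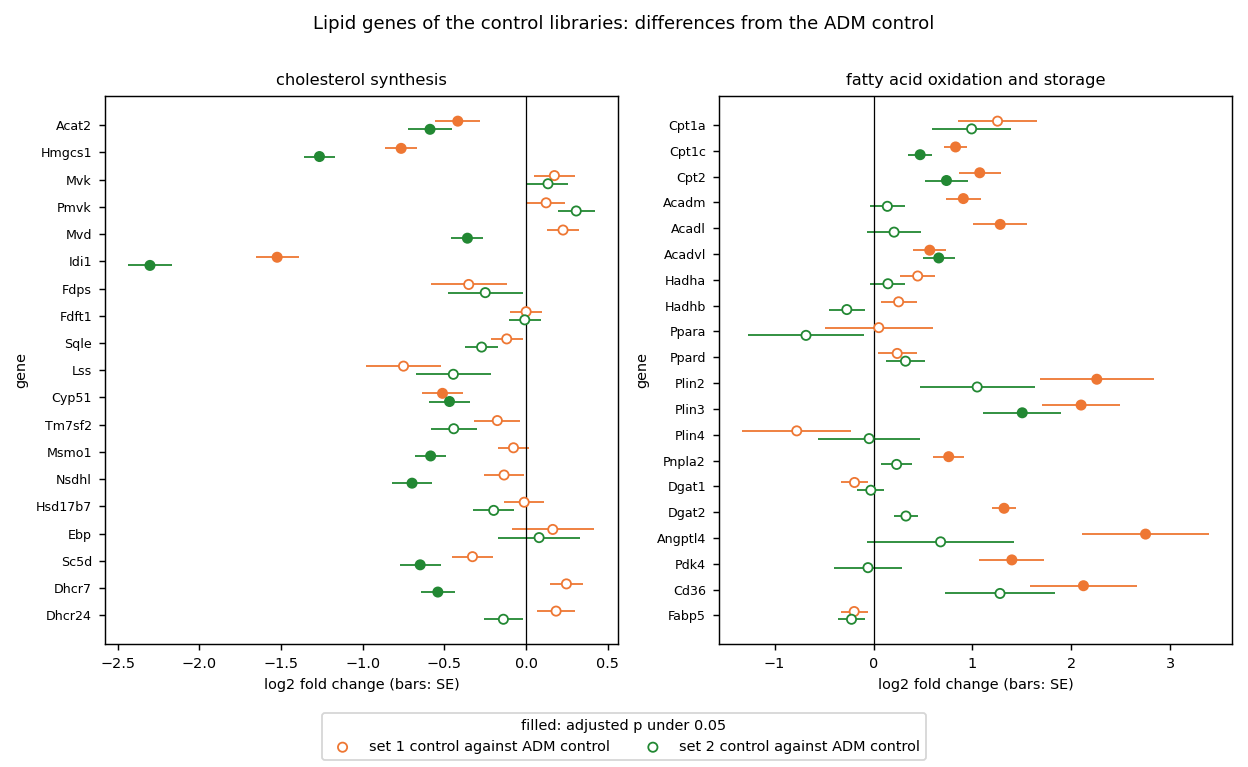
Log2 fold change (horizontal axis, bars are SE) of cholesterol synthesis genes (left) and genes of fatty acid oxidation and storage (right) in the set 1 and set 2 controls against the ADM control, filled where the adjusted p was under 0.05. Idi1 and Hmgcs1 lie farthest left in both comparisons, and Plin2, Plin3, Cd36 and Angptl4 farthest right in the set 1 control.

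The sterol sensors differed less. Srebf2, which encodes the SREBP2 precursor, was at 400.0 and 367 CPM in the ADM control, 373 and 405 in set 1 and 399 and 409.5 in set 2. Insig1, the retention protein, was at 129.96 and 93.8 CPM in the ADM control, 122.8 and 132 in set 1 and 89.2 and 99.4 in set 2. Neither passed a test. Scap, the escort of SREBP, was slightly higher in both sets, by 0.32 and 0.51.

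Of 12 tested genes of sterol export and LXR response, 6 were higher and 1 lower in the set 1 than in the ADM control. The shares of all tested genes were 15.9% and 13.9%. In the set 2 control 4 were higher than in the ADM control (10.7% of all tested genes). With offsets for GC content and gene length in the fit, these 4 became 1. Srebf1, an LXR target that drives fatty acid synthesis, was at 50.9 and 74.3 CPM in the ADM control, 129 and 112 in set 1 and 145 and 140.4 in set 2, with 0.94 ± 0.17 (SE, adjusted p = 0.00653) and 1.19 ± 0.17 (SE, adjusted p = 0.00274). Abca1, the cholesterol exporter that lipidates ApoE, was at 68.1 and 199 CPM in the ADM control, 289 and 311 in set 1 and 331 and 328 in set 2. Its first ADM control library lay well below the second, and the differences of 1.17 and 1.30 did not pass (adjusted p = 0.155 and 0.148). Cyp46a1, the neuronal enzyme that turns cholesterol into 24-hydroxycholesterol, was at 42.2 and 46.95 CPM in the ADM control, 98.6 and 89.1 in set 1 and 42.5 and 43.8 in set 2, with 1.07 ± 0.11 (SE, adjusted p = 0.000353) for the set 1 control. Abcg1 and Nceh1, an exporter and an ester hydrolase, were also higher in the set 1 control, by 0.83 and 0.93. Abca7, a transporter of phospholipid and risk gene for Alzheimer's disease, ran the other way, at 11.5 and 10.1 CPM in the ADM control, 3.79 and 5.67 in set 1 and 17.3 and 17.6 in set 2. Over fits that each left out 1 library, the 6 higher genes of the set 1 control became 2 without the first set 1 library and 10 without the second ADM library. The 4 higher in the set 2 control became 1 without either set 2 library.

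Genes of fatty acid use were highest in the set 1 control. Of 20 genes of oxidation and storage, 12 were higher and none lower in the set 1 than in the ADM control (median 0.87). The shares of all tested genes were 15.9% and 13.9%. In the set 2 control 6 were lower than in the set 1 control (11.3% of all tested genes). Dgat2, which makes triglyceride, was at 18.05 and 18.6 CPM in the ADM control, 46.7 and 44.8 in set 1 and 22.9 and 23.1 in set 2, with 1.32 ± 0.12 (SE, adjusted p = 0.000154). Plin2, a droplet coat gene, was at 1.96 and 8.11 CPM in the ADM control, 28.1 and 20.8 in set 1 and 10.6 and 10.5 in set 2, with 2.26 ± 0.58 (SE, adjusted p = 0.0377). Plin3, of the same family, was at 1.41 and 3.82 CPM in the ADM control, 11.9 and 10.8 in set 1 and 6.42 and 8.63 in set 2, with 2.099 ± 0.39 (SE, adjusted p = 0.00743). Acadl, a mitochondrial dehydrogenase of fatty acids, was at 13.6 and 25.3 CPM in the ADM control, 52.2 and 42.7 in set 1 and 22.6 and 22.5 in set 2. Cpt1c, the neuronal carnitine transferase form, was at 25.7 and 28.2 CPM in the ADM control, 50.2 and 45.7 in set 1 and 35.6 and 39.2 in set 2. Astrocytes carry much of fatty acid oxidation in the brain; the astrocyte sum was highest in the same 2 libraries (4253 and 3903 CPM), and its part in the result was not tested. Of 16 synthesis genes 6 were higher and 1 lower in the set 1 control (15.9% and 13.9% of all tested genes). Among the higher ones were the desaturase Fads1, by 0.39, and the mitochondrial carboxylase Acacb, by 1.43. Fasn, fatty acid synthase, was at 753 and 759 CPM in the ADM control, 697 and 799.7 in set 1 and 853 and 894 in set 2. Scd2, the brain desaturase, was at 2178 and 2376 CPM in the ADM control, 2503 and 2696 in set 1 and 2274 and 2065 in set 2, and neither passed. Acaca, acetyl-CoA carboxylase, was the lower one, at 252 and 258 CPM in the ADM control, 150.0 and 187 in set 1 and 233 and 241 in set 2. With 1 library left out, the 12 higher oxidation and storage genes became 2 without the first set 1 library. The 6 lower in the set 2 than in the set 1 control became 1 without either set 1 or either set 2 library and 11 without either ADM library. The 6 higher synthesis genes became 0 without the first set 1 library and 2 without either set 2 library.

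Of 9 tested genes of apolipoproteins and their remodelling, 3 were higher and 1 lower in the set 1 than in the ADM control. The shares of all tested genes were 15.9% and 13.9%. In the set 2 control 2 were higher than in the ADM control (10.7% of all tested genes). Apoe was at 165 and 633 CPM in the ADM control, 1542 and 1103 in set 1 and 681 and 657 in set 2, and no pairwise difference passed (1.73 ± 0.68 SE, adjusted p = 0.132 in the set 1 control, and 0.74 ± 0.67 SE, adjusted p = 0.487 in the set 2 control). Its first ADM control library lay far below the second. Per summed astrocyte CPM, Apoe came to 0.168 and 0.352 in the ADM control, 0.363 and 0.283 in the set 1 control and 0.319 and 0.326 in the set 2 control. On that scale the first ADM control library alone lay apart from the other 5. Other scalings differed. The count ratio of Apoe to Gfap was highest in the ADM control, at 13.3 and 5.20. It was 2.56 and 2.27 in the set 1 control and 2.07 and 2.05 in the set 2 control. The ratio to Slc1a3 was 0.447 and 1.13 in the ADM control, 1.44 and 1.10 in the set 1 control and 1.22 and 1.33 in the set 2 control. Clu (clusterin), the other abundant glial apolipoprotein, was at 56.8 and 128 CPM in the ADM control, 542 and 402 in set 1 and 205 and 161 in set 2, higher in the set 1 control by 2.349 ± 0.43 (SE, adjusted p = 0.0169). Apod, made by reactive glia and fibroblasts, was at 0.737 and 0.159 CPM in the ADM control, 1.24 and 0.227 in set 1 and 2.71 and 2.49 in set 2. Of 13 receptors, 3 were higher and 2 lower in the set 1 control than in the ADM control (15.9% and 13.9% of all tested genes), and 1 was higher in the set 2 control (10.7%). Lrp1, the large endocytic receptor, was at 523 and 622 CPM in the ADM control, 578 and 732 in set 1 and 786 and 807 in set 2, with 0.48 ± 0.14 (SE, adjusted p = 0.0406). Lrp8 (ApoER2), the reelin and ApoE receptor of neurons, was at 319 and 263 CPM in the ADM control, 190.4 and 234 in set 1 and 305 and 302 in set 2, lowest in the set 1 control (-0.46 ± 0.13 SE, adjusted p = 0.0308). Vldlr and Sort1 passed no test. In fits without 1 library, the 3 higher apolipoprotein genes of the set 1 control became 0 without the first set 1 library, 5 without the second set 1 library and 6 without either ADM library. The 2 higher in the set 2 control became 0 without the second set 2 library, 1 without the first set 2 library and 6 without the second ADM library. The 3 higher receptors became 1 without the first set 1 or either set 2 library.

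Genes of cell stress were also read. Of 15 chaperones and other stress genes of the endoplasmic reticulum, 6 were lower and none higher in the set 1 than in the ADM control (13.9% of all tested genes lower). Their median was -0.36. Without the first ADM control library it was -0.25, and members then moved in both directions. Hspa5 (BiP) was at 371 and 316 CPM in the ADM control, 271 and 249.7 in set 1 and 319 and 317 in set 2. Manf, a secreted survival factor of that compartment, was at 44.8 and 39.002 CPM in the ADM control, 27.7 and 27.5 in set 1 and 45.9 and 44.5 in set 2, with -0.60 ± 0.12 (SE, adjusted p = 0.00716). Of 13 genes of oxidative and heat stress, 7 were higher and 2 lower in the set 1 than in the ADM control. The shares of all tested genes were 15.9% and 13.9%. In the set 2 control 3 were higher than in the ADM control (10.7% of all tested genes). Srxn1, an NRF2 target that repairs peroxiredoxins, was at 22.8 and 26.2 CPM in the ADM control, 68.2 and 61.4 in set 1 and 59.9 and 62.1 in set 2, with 1.40 ± 0.12 (SE, adjusted p = 0.000127) and 1.31 ± 0.12 (SE, adjusted p = 0.000124). Mt1, a metallothionein that astrocytes hold in quantity, was at 18.97 and 38.6 CPM in the ADM control, 231 and 151 in set 1 and 59.6 and 60.2 in set 2. Of the integrated stress list, 4 of 23 were higher and 1 lower in the set 1 control than in the ADM control (15.9% and 13.9% of all tested genes), and 2 were higher and 1 lower in the set 2 control (10.7% and 9.51%). The 4 became 0 without the first set 1 library, 2 without the second set 1 or either set 2 library and 7 without the second ADM library. Its central factor Atf4 was at 157 and 136 CPM in the ADM control, 211 and 212 in set 1 and 122.9 and 142 in set 2. Atf5, its relative, was at 62.1 and 57.4 CPM in the ADM control, 45.98 and 41.1 in set 1 and 19.5 and 17.9 in set 2, lowest in the set 2 control (-1.68 ± 0.12 SE, adjusted p = 3.05e-05). Fkbp5, a glucocorticoid response gene, was at 56.8 and 41.6 CPM in the ADM control, 18.8 and 19.8 in set 1 and 38.2 and 36.9 in set 2, lowest in the set 1 control (-1.35 ± 0.16 SE, adjusted p = 0.000701). When 1 library was dropped, the 6 lower chaperone genes of the set 1 control became 1 without the first set 1 library, 2 without the first ADM or either set 2 library and 3 without the second set 1 library. The 3 stress genes higher in the set 2 control became 7 without the second ADM library. The 7 higher in the set 1 control became 2 without the first set 1 library and 4 without the second set 1 or either set 2 library.

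The largest single changes depend in part on the tables. By size, the top rises of both sets over the ADM control included processed pseudogenes. One of them, Rps10-ps2, was at 0.0614 and 0 CPM in the ADM control, 65.2 and 57.96 in set 1 and 58.2 and 64.5 in set 2. Another, Rpl17-ps10, had 0 CPM in both ADM control libraries against 27.8 and 31.1 in the set 2 control. Pseudogenes took 0.191 to 0.211% of counts in the ADM control libraries and 0.495 to 0.597% in the other 4. Gapdh, which has many processed pseudogenes, was highest in the ADM control, at 927 and 781 CPM in the ADM control, 145 and 133 in set 1 and 118 and 98.5 in set 2. mt-Co2, a mitochondrial gene with copies in nuclear chromosomes, was at 1.35 and 0.795 CPM in the ADM control, 80.2 and 63.2 in set 1 and 24.9 and 18.7 in set 2. How reads with several matches were handled is not given, and these values are uncertain for that reason. Meg3, an imprinted RNA of neurons, was at 2233 and 2669.9 CPM in the ADM control, 1672 and 2460.0 in set 1 and 7.78 and 14.5 in set 2, and it was between 7.86 and 27.3 CPM, by library totals, in all 6 set 2 libraries. Its neighbour Rian was between 61.3 and 96.0 CPM in those 6 and between 766 and 1024 CPM in the other 8. Nnt, chosen after its values were seen, encodes a mitochondrial transhydrogenase, and its gene is known to be partly deleted in the C57BL/6J substrain. It was between 15.6 and 18.7 CPM, by library totals, in all 6 set 2 libraries and between 0.316 and 1.39 CPM in the other 8. The labels give C57BL/6 for all of them, with no substrain.

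By a rule added after the values were seen, the largest changes were then read over protein-coding genes with the same position in the 3 tables and no shift across a table. Against the ADM control, the rises of the set 1 control were led by Alb, which encodes albumin, at 0.0614 and 0.053 CPM in the ADM control, 9.45 and 3.46 in set 1 and 3.38 and 3.25 in set 2, and held Fxyd1, a regulator of the sodium pump, C4b, Slc30a3 and Nrgn. Its falls held Lars2, a mitochondrial tRNA ligase, at 2287 and 629 CPM in the ADM control, 198 and 132 in set 1 and 1474 and 1435 in set 2, where the first ADM control library was far above the second. Lhx8 and Ebf1, transcription factors of ventral forebrain neurons, were also among these falls, with -2.95 and -5.66. The 7 largest rises of the set 2 control over the ADM control were all interferon-induced: Oasl2, Ifi47, Oas1a, Ifi44, Usp18, Bst2 and Rtp4. The falls from the set 1 to the set 2 control were led by Vip and Slc30a3 and held Nrgn and Csf1r, the growth factor receptor of microglia.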

How the data were processed

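Whole-gene read counts of 6 control libraries of mouse primary neurons were taken from 3 deposited tables. Per the submitters' processing notes, the tools were HISAT2 2.1.0, Bowtie2 2.2.3 and HTSeq 0.6.0, and the build mm10. Per the labels' protocols, RNA from all 6 was extracted with Trizol and made into libraries with the same NEBNext Ultra kit. Neither the use of strand in counting nor the treatment of reads with several matches is stated. The authors' counts per gene were used as deposited, with no normalization. The libraries held 15815829 to 19142353 counts. The tables were joined by gene identifier, and the 25948 shared genes of 35565 held nearly all of the counts. Gene symbols that a spreadsheet had turned into dates were restored, 25 per table.

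Genes were filtered with filterByExpr and scaled by TMM. One model with the 3 groups was fitted with edgeR 4.0.16 in R 4.3.3 (quasi-likelihood F test, robust, Benjamini-Hochberg adjustment, threshold 0.05), and the 3 pairwise contrasts were read from it. The steps were tested on simulated data. Promoters are RefSeq windows on GRCm38.p6 matched by symbol. The genes named are anchors of each list, the members with the lowest p, and the 6 largest rises and falls of each comparison with at least 5 CPM. The groups, lists and rule were chosen with earlier results of these data known, and some members are not reported here. Same-numbered libraries did not deviate together (correlations of -0.16, -0.18 and 0.06), so the numbers were not treated as pairs. Alternatives were other scalings, filters and gene sets, DESeq2 1.42.0, limma-voom (limma 3.58.1), other sets of libraries in the fit, the replicate number as a block, and leaving out each library. Added after the data were seen were GC and length offsets, and protein-coding genes at the same position in the 3 tables.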

Additional observations from a re-analysis of the deposited data

How the results depend on the processing

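With only the 2 groups compared in the fit, 3061 genes differed between the set 1 and ADM controls in place of 4970, and 5810 between the set 2 and set 1 controls in place of 3589. Leaving out 1 library at a time gave 2766 to 9176 genes among the 3 groups, 1180 to 6999 for the set 1 against the ADM control, 977 to 5480 for the set 2 against the ADM control and 689 to 5848 for the set 2 against the set 1 control. A group left with 1 library was assumed to vary like the others. With the replicate number as a block, which pairs nothing in the design, the counts were 4995, 3855, 2394 and 2591 in the same order. With GC and length offsets they were 5901, 4899, 2336 and 3831. Over protein-coding genes at the same position in the 3 tables they were 5555, 4234, 2482 and 3133, and 47.7%, 47.0% and 49.3% of the pairwise calls were higher, in place of 53.4%, 52.9% and 47.3%.

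Of 11295 values of single genes under the alternatives, 10114 kept their direction and side of the threshold, 721 lost the call, 291 gained one, 166 without a call moved, and 3 changed direction. Homer1 in the set 2 against the ADM control went to 0.0853 with GC and length offsets. Leaving out a library moved Oasl2 in the set 1 against the ADM control from -1.024 (without the first ADM control library) to 2.389 (without the second), and Ifit1 from -1.017 to 3.936. The causes were not tested. At this depth genes below the filter, such as P2ry12, Tmem119 and Ifnb1, could not be compared.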
